A study of Mus musculus with 24 samples.

Results

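The Zfp family is the set of mouse genes named Zfp followed by a number, most of which encode proteins that hold tandem C2H2 zinc fingers. Genes whose name was Zfp and a number were taken from the deposited count table, with Zfp36 left out because it encodes an RNA-binding protein of another finger type. Of 375 such genes, 258 had 120 or more reads over the 24 libraries and are called members here. The other 117 fell under that threshold, 44 of them with 0 reads. Just inside it stood Zfp667 with 132, Zfp605 with 134 and Zfp526 with 137 reads, and just outside Zfp108 with 117, Zfp273 with 115 and Zfp473 with 113. For 19 members the reads outside their highest group summed to under 120, so that group brought them over the threshold, and 16 of these were highest in untreated cells at 18 h. Zfp811 and Zfp459 (highest with LPS at 3 h), Zfp827 (with S14 at 3 h) and Zfp760 (in untreated cells at 18 h) are those described below, by their values. Where they enter a rank, a count of calls or an interval, that is no test of a change in them. The whole table held 55401 genes, of which 11808 passed the same threshold and were tested.

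A C2H2 finger is a short fold held by a zinc ion, and a row of fingers reads a stretch of DNA or, in some proteins, RNA. Many family members also carry a KRAB box, which recruits the co-repressor Trim28 and with it the histone methyltransferase Setdb1, and such KRAB zinc finger proteins are known for silencing transposable elements. Other members are promoter-binding activators, ubiquitin ligases or ribosome and RNA factors, and many KRAB genes lie in clusters that arose by gene duplication.

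The cells were bone marrow-derived macrophages from wild-type C57BL/6J mice, grown with medium conditioned by L929 cells, which supplies the growth factor M-CSF. The groups were untreated cells (UT in the sample titles, Veh in the column names of the count table), cells given S14 at 30 µM and cells given lipopolysaccharide (LPS) at 100 ng/mL, all for 3 h or 18 h. The lipid S14, sphingomyelin d18:1/14:0, belongs to a class of membrane lipids, and LPS is a bacterial outer membrane component sensed by Toll-like receptor 4. Each of the 6 groups held 4 libraries, sequenced from the 3' ends of polyadenylated RNA. The labels give the same genotype and culture for all groups, and do not say whether the 4 libraries of a group came from separate animals, so p-values measure the spread between these libraries, which may be technical.

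Library totals ran from 3334182 to 6350251 reads, members held 0.28 to 0.455% of them, and 246 to 258 members were detected per library. Levels are CPM (the reads of a gene scaled to a common library size, as edgeR's cpm function gives them), and n = 4 for every mean ± SD. The mean level of a member over all libraries ran from 1.11 to 172 CPM with a median of 6.51, against a median of 23.6 CPM for the 11550 other genes tested. All 8 macrophage markers were tested, and their summed level was 20000 to 21400 CPM in untreated, 20400 to 22100 in S14 and 19600 to 21300 in LPS libraries at 3 h. At 18 h it was 31700 to 45700, 32100 to 33100 and 16000 to 24700 CPM. The 4 T cell markers, 1 of them tested and Cd3g at 0, summed to 16.8 to 37.4 CPM with LPS at 3 h against 0.441 to 2.04 in untreated cells. The 7 neutrophil markers, 2 of them tested, reached 7.54 to 35.1 CPM with LPS at 3 h and 40.7 to 50.3 at 18 h, against at most 5.61 CPM in untreated libraries. The 5 fibroblast and stroma markers, with Lum and Pdgfra at 0, reached 10.3 to 17.5 CPM with LPS at 18 h against at most 1.57 CPM in untreated cells, while the 4 erythroid markers were at 0 in every library. Of these lists 1 T cell, 2 neutrophil and 1 fibroblast and stroma marker were tested. The sums do not show whether such cells were present, and their part in the values below was not tested. In bulk RNA, fewer cells that express a gene and less of its RNA per cell cannot be told apart. Untreated 18 h replicate 4 stood apart: its mean correlation with its own group (Pearson, log2 CPM) was 0.949, against 0.966 to 0.967 for the other 3 untreated 18 h libraries and 0.973 or more in every other group.

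After 3 h of LPS more members fell than rose. Of the 258 members, 109 (42.2%) fell and 25 (9.69%) rose in edgeR's quasi-likelihood test at an adjusted p under 0.05, against 29.9% and 25% of all genes tested. Among other genes weighted to the members' mean counts, in classes 1 log2 unit wide, 29.6% fell and 16.2% rose. The median log2 fold change was -0.68 for members, -0.27 for genes of similar mean count and -0.11 for all genes, and 204 members (79.1%) lay below 0, against 56% of all genes. For 91 members all 4 LPS libraries were below all 4 untreated ones, and for 25 they were above, where 26.9% and 24.2% of all genes did so. Of the 19 members that 1 group brought over the threshold, 4 are among the 109 and 2 among the 25. These shares describe the list, and no test of the list was run.

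The difference was seen in each library. Set against the untreated mean, the median member stood at -0.57 to -0.51 log2 CPM in the 4 LPS libraries at 3 h, while genes of similar mean count stood at -0.25 to -0.23. The untreated libraries of that time lay at -0.02 to 0.03, so the groups did not overlap. The median member level was 3.9 to 4.6 CPM with LPS and 6.52 to 6.98 CPM without.

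**Figure D1:**
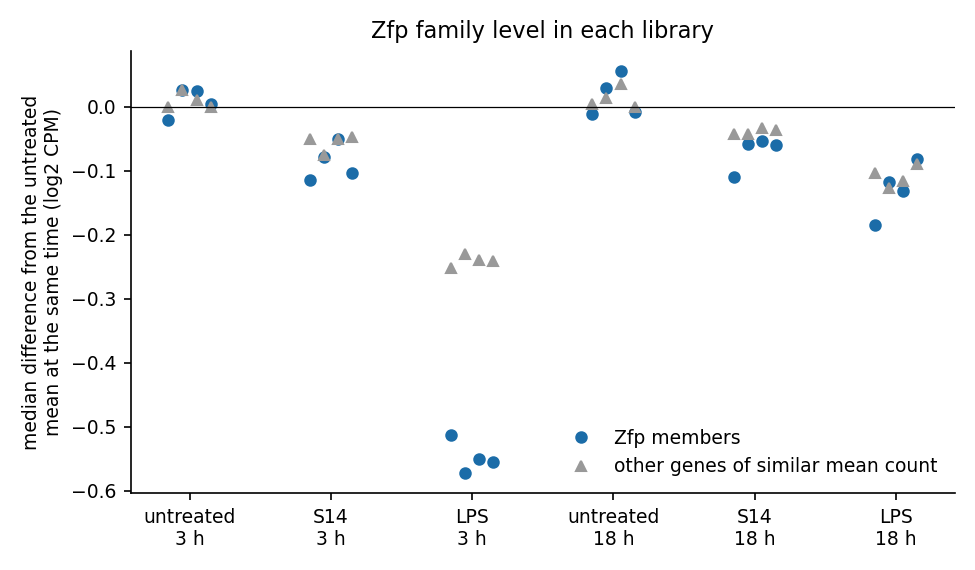
Median difference of the 258 members (circles) and of other genes of similar mean count (triangles) from the untreated mean at the same time, in log2 CPM, for each of the 24 libraries. The LPS 3 h libraries sit at -0.57 to -0.51 for members and at -0.25 to -0.23 for the similar genes, and both sets stay between -0.18 and 0.06 in the other 5 groups.

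The summed level of the family did not follow its median. It was 3657 to 3864 CPM with LPS at 3 h and 3510 to 3617 CPM in untreated cells. Leaving out Zfp800, Zfp281 and Zfp207, which were chosen for this sum after their values were seen, it was 2572 to 2752 CPM with LPS against 3228 to 3349 CPM without.

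The scaling matters for how many members are called. A second deposited table of the same libraries also holds 114 spike-in RNAs, with 705 to 2588 reads per library. Scaled to these reads, after LPS for 3 h the median of all genes moved from -0.11 to 0.23, and that of members from -0.68 to -0.32. On that scale 30 members fell and 23 rose, with 8.08% of all genes lower and 19.7% higher. Members stood below the median of all genes on both scales. Scaling shifts all genes of a library alike, so the second scale is no further test of this order. At 18 h the spike-in scale moved all genes further, to a median of -0.98 with S14, -0.68 with LPS and 0.82 for untreated cells from 3 h to 18 h, beside member medians of -1.06, -0.77 and 1.05. Without untreated 18 h replicate 4 these were -0.49, -0.19 and 0.32 for all genes and -0.58, -0.35 and 0.57 for members. Changes below are therefore relative to the bulk of all genes, and the split of calls on the spike-in scale is given beside the counts over the whole family and the KRAB counts. It was not computed for the counts by level, overlap, neighbour, role or related list. Where a split on the spike-in scale has no share of all genes beside it, it is no result about members in particular.

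The family split differently at each time and treatment. S14 at 3 h gave 6 members higher and 7 lower, against 8.92% and 6.15% of all genes (2 and 0 on the spike-in scale, with 2 lower at an unadjusted p under 0.05). At 18 h S14 gave 4 higher and 16 lower, against 12.5% and 11.5% (0 and 155 on the spike-in scale, where 64% of all genes were lower, with 0 members higher at an unadjusted p under 0.05; without untreated 18 h replicate 4 the 155 became 41, with 18.1% of all genes lower). LPS at 18 h gave 27 higher and 56 lower, against 27% and 28% (3 and 91 on the spike-in scale, with 5.78% and 38.3% of all genes; 7 and 41 without that library). The share of members called was below that of all genes in each of these, and the member medians of -0.13, -0.1 and -0.18 stood close to those of similar genes, at -0.08, -0.09 and -0.18. Of the 19 members that 1 group brought over the threshold, 16 were highest in untreated cells at 18 h. With LPS at 18 h, 1 of the 19 is among the 27 and 4 are among the 56. With S14 at 18 h, 0 are among the 4 and 1 is among the 16.

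**Figure D2:**
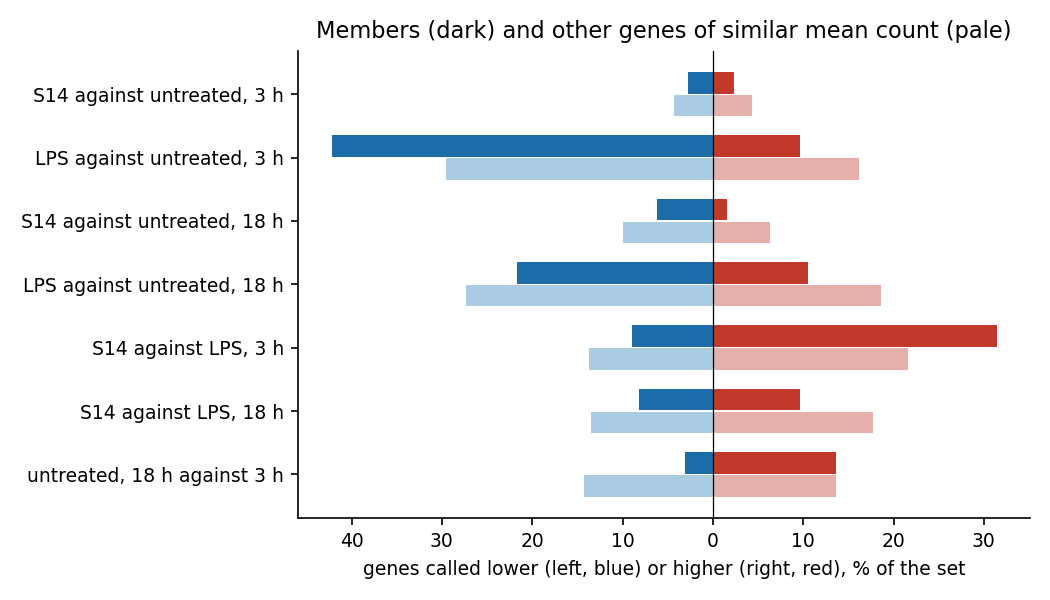
Percent of members (dark bars) and of other genes weighted to the same mean counts (pale bars) called lower (left) and higher (right) in each comparison. With LPS at 3 h, 42.2% of members and 29.6% of similar genes were lower, and in untreated cells from 3 h to 18 h 3.1% of members and 14.3% of similar genes were lower.

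By the naming rule the highest fold changes with LPS at 3 h were those of Zfp811, Zfp800, Zfp459, Zfp281, Zfp945 and Zfp456. Zfp811 (chr17:32795676-32809931, minus strand, GRCm38), a KRAB gene with 13 fingers, was near absent in untreated cells. Its 4 untreated libraries at 3 h held 0, 0.45, 0 and 0.256 CPM, its S14 libraries 1.81, 3.53, 5.69 and 3.73, and its LPS libraries 15.7, 17.6, 14.1 and 12. The 3 groups did not overlap, in the order untreated, S14, LPS. The untreated group held 3 reads of Zfp811 in all, so the ratio of CPM was 21.6 (95% counting interval 7.1 to 107) for S14 and 84.3 (28.5 to 412) for LPS, intervals that cover counting error only. Of its 335 reads 225 were in the LPS 3 h group, without which it held 110, under the threshold. Its rank, the order of its groups and its ratios and intervals therefore describe values and are no test. At 18 h Zfp811 was at 0.937, 1.26, 2.69 and 2.62 CPM with LPS, a ratio of 46.5 (7.79 to 1890) to the single read in untreated cells.

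Zfp800 (chr6:28239927-28398005, minus strand), with 6 fingers and no KRAB box, was the most abundant member after 3 h of LPS. Its untreated libraries at 3 h held 76.8, 67.8, 78.9 and 58.3 CPM, its S14 libraries 130, 134, 140 and 131, and its LPS libraries 588, 656, 650 and 598. All 4 S14 libraries were above the untreated ones and all 4 LPS libraries above the S14 ones. The log2 fold change was 0.92 (SE 0.12, adjusted p = 8.31e-08) for S14 and 3.14 (SE 0.12, adjusted p = 1.06e-23) for LPS. At 18 h it was 102 ± 13.1 CPM with LPS and 47.3 ± 12 without, a log2 fold change of 1.1, and the S14 value of 0.18 was not called (adjusted p = 0.32).

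Zfp281 (chr1:136624901-136630053, plus strand) encodes a factor that binds GC-rich promoters and is known from embryonic stem cells. Its untreated libraries at 3 h held 26.4, 39.4, 30.2 and 36.3 CPM, its S14 libraries 50.9, 49.6, 57.9 and 60.7, and its LPS libraries 219, 182, 230 and 198. The groups again did not overlap, with log2 fold changes of 0.73 (SE 0.16, adjusted p = 0.000707) for S14 and 2.65 (SE 0.15, adjusted p = 6.95e-17) for LPS. At 18 h it stood at 68.1 ± 8.14 CPM with LPS against 45.8 ± 15.6, and untreated replicate 4, at 68.7 CPM, lay within the LPS range.

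Zfp945, a KRAB gene with 18 fingers, held 5.89 to 9.25 CPM in untreated and 7.37 to 9.88 in S14 libraries at 3 h, and 32.7 to 48.9 with LPS. Its log2 fold change with LPS was 2.45 (SE 0.2, adjusted p = 5.51e-14), and the S14 value of 0.18 was not called. Zfp456, a KRAB gene on chromosome 13, rose from 3.15 ± 1.29 to 13.3 ± 3.33 CPM. Zfp459, on the same chromosome, stood at 0.464 ± 0.176 and 3.91 ± 0.931 CPM, and 59 of its 153 reads were in the LPS 3 h group. Zfp456 overlaps Gm28041 on the same strand, so its reads may be shared. Zfp324, at 5.39 ± 0.998 CPM, rose to 22 ± 4.6, and Zfp319 rose from 16.9 ± 1.25 to 44.7 ± 6.25. Zfp207, a spindle and microtubule-binding protein also known as BuGZ, rose from 172 ± 9.15 to 266 ± 17.6 CPM, a log2 fold change of 0.63 (adjusted p = 1.3e-08).

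The members that fell most were Zfp395, Zfp275, Zfp652, Zfp41, Zfp398 and Zfp846. Zfp395 (chr14:65358389-65398930, plus strand), a protein reported to bind the huntingtin promoter, held 5.42, 3.83, 4.63 and 2.81 CPM in untreated libraries at 3 h and 1.03, 1.65, 2.95 and 0.17 with S14. None of the 4 LPS libraries held a read of it. With a floor of 3 reads over the group (0.197 CPM), it was at least 21.3-fold lower with LPS than in untreated cells. S14 lowered it as well, by the test (adjusted p = 0.0241), although 1 S14 library overlapped the untreated range, and without S14 3 h replicate 4 the adjusted p was 0.137. Leaving out untreated 3 h replicate 1 gave 0.0816, replicate 3 gave 0.0581, and leaving out S14 3 h replicate 1 gave 0.069. At 18 h it was at 8.07 ± 2.88 CPM untreated and 1.15 ± 0.242 with LPS (log2 fold change -2.78, adjusted p = 4.83e-06).

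Zfp652 (chr11:95712673-95835115, plus strand), a transcriptional repressor that binds the co-repressor Cbfa2t3, fell in both treatments. Its libraries held 34.9, 25.4, 31.9 and 26.8 CPM untreated at 3 h, 18.1, 16, 19 and 18.5 with S14, and 6.76, 4.19, 4.13 and 2.86 with LPS. The groups did not overlap, in the order untreated, S14, LPS, with log2 fold changes of -0.73 (SE 0.17, adjusted p = 0.000998) and -2.73 (SE 0.21, adjusted p = 3.44e-15). At 18 h the means were 48 ± 7.21, 35.1 ± 7.3 and 23.5 ± 1.77 CPM. The S14 value at 18 h, -0.45, was called at an adjusted p of 0.0248 but not without untreated replicate 4 (0.1), S14 18 h replicate 3 (0.0989) or replicate 4 (0.108). Zfp652 overlaps Phospho1 on its own strand and Zfp652os and Abi3 on the other, and no source used here gives the strand setting of the counting.

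Zfp275 (chrX:73342621-73359080, plus strand), with 11 fingers, fell with LPS at 3 h and was not called with S14 (0.08, adjusted p = 0.895). Its libraries held 12, 7.88, 11.7 and 11.8 CPM untreated, 11.4, 12.5, 9.9 and 12 with S14, and 1.89, 0.837, 2.19 and 1.3 with LPS. The LPS log2 fold change was -2.76 (SE 0.32, adjusted p = 8.56e-10), and S14 differed from LPS directly by 2.85 (adjusted p = 4.66e-10). Zfp41 went from 6.2 ± 2.09 to 0.913 ± 0.958 CPM, Zfp846 from 6.31 ± 1.55 to 1.06 ± 0.679, Zfp398 from 4.62 ± 2.82 to 0.716 ± 0.538 and Zfp266 from 8.93 ± 1.89 to 1.6 ± 1.11. All 4 fell by the test, and none was called with S14 at 3 h.

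**Figure D3:**
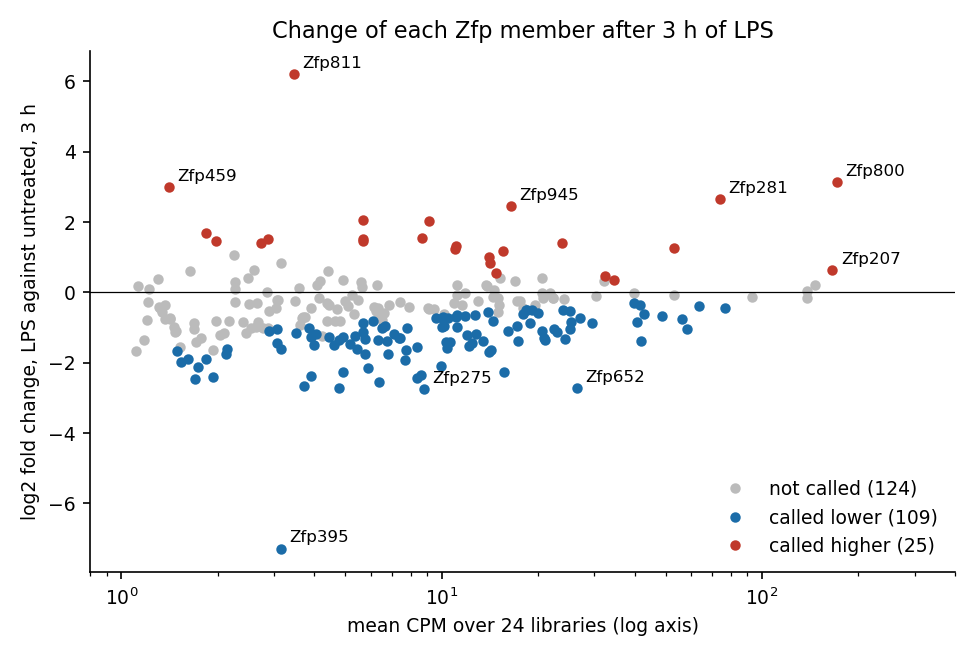
Log2 fold change of each of the 258 members with LPS at 3 h against its mean level over the 24 libraries (log axis). The 109 members called lower (blue) lie on both sides of 4 CPM, and the 25 called higher (red) include Zfp800 at 3.14 and Zfp281 at 2.65. The fitted values of Zfp811 and Zfp395 rest on groups with 3 and 0 reads.

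**Figure D4:**
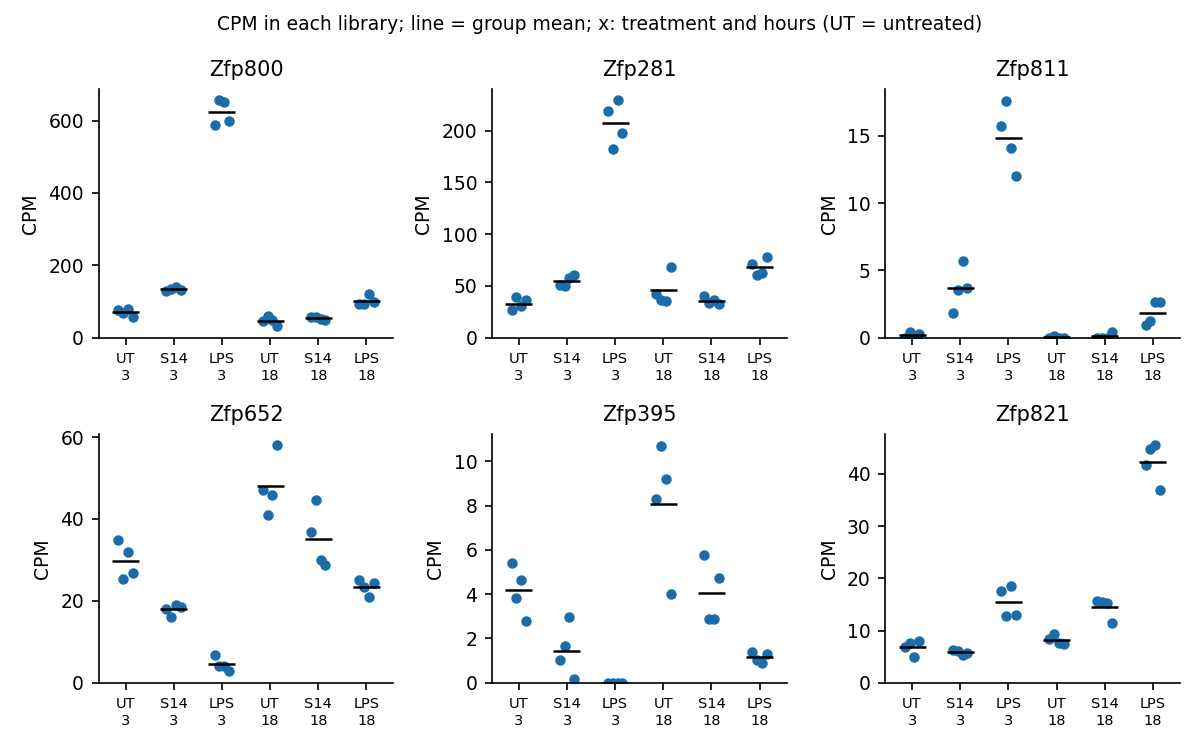
CPM of 6 members in each library (points) and group mean (line), by treatment and hours, with UT for untreated. LPS at 3 h gives the highest libraries of Zfp800, Zfp281 and Zfp811 and the lowest of Zfp652 and Zfp395, while Zfp821 is highest with LPS at 18 h, at 36.9 to 45.6 CPM.

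Members on both sides of a mean of 4 CPM fell. Of the 6 most abundant, Zfp800 and Zfp207 rose and Zfp263, Zfp106 and Zfp91 were not called. At a mean of 4 CPM or more, 89 of 175 members (50.9%) were lower with LPS at 3 h, against 31.8% of the 9669 other genes of that level. Under 4 CPM, 20 of 83 (24.1%) were lower, against 18.5% of 1881 other genes. The 177 members with no exon overlap with another gene gave 79 lower (44.6%) and 17 higher. Exons of 24 members overlap another gene on the same strand and those of 63 on the other strand. Reads of close paralogs may be split or dropped by the counting, and 149 members have another Zfp gene within 100 kb. Of these 149, 64 (43%) were lower, and of the 108 without such a neighbour 44 (40.7%), while 1 member had no position in GENCODE M21.

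Members were then grouped by protein. A KRAB A box was found by pattern in 140 members and not in 116, while 2 had no coding sequence in GENCODE M21, and boxes that diverge from the pattern are missed. The KRAB group had a median of 12 fingers and a median level of 4.86 CPM, and the other group 7 fingers and 12.7 CPM. With LPS at 3 h, 54 KRAB members (38.6%) fell and 13 rose (median -0.78), and 54 of the others (46.6%) fell and 12 rose (median -0.55), where 29.9% and 25% of all genes did so. At 18 h 34 KRAB members (24.3%) were lower and 5 higher with LPS, while 22 of the others were lower and 22 higher (19% each), with medians of -0.32 and -0.03, against 28% of all genes lower and 27% higher. In untreated cells from 3 h to 18 h, 21 KRAB members rose and 0 fell (edgeR; 0 fell at an unadjusted p under 0.05 and 0 with DESeq2), and 14 of the others rose and 8 fell, against 18.9% and 19.4% of all genes. On the spike-in scale the KRAB counts higher and lower were 13 and 17 with LPS at 3 h, 1 and 55 with LPS at 18 h and 74 and 0 for untreated cells over time, and those of the others 10 and 13, 2 and 36, and 59 and 0 (1 lower at an unadjusted p under 0.05). The difference between the 2 protein groups was not tested.

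**Figure D5:**
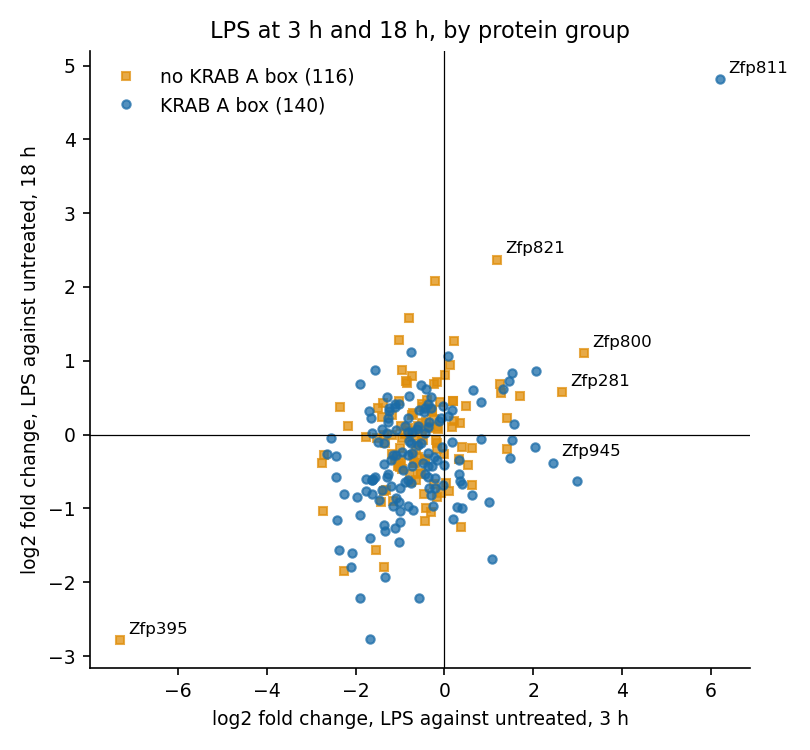
Log2 fold change with LPS at 3 h (x axis) and 18 h (y axis) for 140 members with a KRAB A box (circles) and 116 without (squares). The 2 times use different libraries. The KRAB group has a median of -0.78 at 3 h and -0.32 at 18 h, and the other group -0.55 and -0.03.

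Promoters are shown for the members that rose and fell most among those in the RefSeq table (GRCm38.p6, 250 bases before to 50 after the listed start). Zfp281 and Zfp652 were added after their values were seen, and their 3 treatment groups did not overlap. Zfp800, whose groups did not overlap either, is in that table and is not shown. Capitals mark a core of the NF-kB motif, GGG and then CC with 5 bases of any kind between, on either strand.
Zfp811: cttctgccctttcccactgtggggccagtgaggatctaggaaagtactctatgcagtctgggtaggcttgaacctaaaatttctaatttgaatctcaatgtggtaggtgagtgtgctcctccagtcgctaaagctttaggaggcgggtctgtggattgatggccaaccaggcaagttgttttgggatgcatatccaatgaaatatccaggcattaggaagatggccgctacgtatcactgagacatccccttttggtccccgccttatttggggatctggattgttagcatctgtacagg
Zfp281: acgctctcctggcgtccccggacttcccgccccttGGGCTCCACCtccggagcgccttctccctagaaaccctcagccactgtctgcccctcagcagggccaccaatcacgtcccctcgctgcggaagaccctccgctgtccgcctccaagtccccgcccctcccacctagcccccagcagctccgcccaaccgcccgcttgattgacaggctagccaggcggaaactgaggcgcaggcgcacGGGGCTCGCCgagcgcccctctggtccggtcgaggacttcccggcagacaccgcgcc
Zfp275: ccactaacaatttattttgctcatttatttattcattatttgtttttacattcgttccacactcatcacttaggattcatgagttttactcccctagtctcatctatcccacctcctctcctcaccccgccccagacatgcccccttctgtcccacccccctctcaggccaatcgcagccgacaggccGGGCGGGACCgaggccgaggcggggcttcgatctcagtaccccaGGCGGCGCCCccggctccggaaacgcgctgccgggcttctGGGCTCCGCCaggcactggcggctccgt
Zfp652: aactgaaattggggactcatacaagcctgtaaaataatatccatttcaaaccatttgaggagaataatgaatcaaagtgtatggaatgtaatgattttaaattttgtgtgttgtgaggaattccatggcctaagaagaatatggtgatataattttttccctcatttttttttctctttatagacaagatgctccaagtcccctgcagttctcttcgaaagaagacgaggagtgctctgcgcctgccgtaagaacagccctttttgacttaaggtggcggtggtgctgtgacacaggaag
These are chr17:32809882-32810181 on the minus strand, chr1:136624651-136624950, chrX:73342370-73342669 and chr11:95748817-95749116, the last 3 on the plus strand. The listed start of Zfp652 lies inside the gene as GENCODE places it. Zfp281, which rose, holds 2 matches, and Zfp275, which fell, holds 3, while Zfp811 and Zfp652 hold none in these letters.

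The pattern was found in members that rose and in members that fell. Of 214 members in the table, it was found on either strand in 15 of 23 that rose with LPS at 3 h (65.2%), 59 of 90 that fell (65.6%) and 60 of 101 not called (59.4%), against 53.5% of 27025 genes. The interferon response core, GAAA and again GAAA with 2 bases of any kind between, was found in 1 of the 23, 0 of the 90 and 3 of the 101, against 3.99% of all genes. The ETS core CCGGAAG was found in 2 of the 23 (8.7%), 19 of the 90 (21.1%) and 27 of the 101 (26.7%), against 9.93%. Matches of different patterns may overlap, and a match is a description of the letters. The median number of CG dinucleotides was 16 in members and 8 in all genes. For a gene with several listed promoters, a pattern counted if any of them held it, and the highest CG number was taken.

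S14 at 3 h moved few members. The 6 that rose included Zfp800, Zfp281, Zfp319 and Zfp263, and the 7 that fell included Zfp704, Zfp422, Zfp367, Zfp652 and Zfp395. Zfp263, a promoter-binding protein, was at 150, 160, 159 and 141 CPM untreated and 186, 197, 199 and 221 with S14, a log2 fold change of 0.39 (adjusted p = 0.0027), while its LPS value of 0.2 was not called (adjusted p = 0.0882). Zfp704 fell from 15.6 ± 1.28 to 7.66 ± 1.74 CPM, a difference of -1.01 log2 units (adjusted p = 0.00225), and stood at 3.24 ± 0.959 with LPS. Zfp367 fell from 19.7 ± 3.55 to 10.9 ± 1.54 CPM, and Zfp422 from 11.9 ± 1.53 to 6.6 ± 1.19. The Zfp422 call (adjusted p = 0.0302) was lost, at 0.0529 to 0.0976, without untreated replicate 1, 2 or 4 or S14 replicate 1 or 4. Zfp319 rose from 16.9 ± 1.25 to 24.3 ± 2.02 CPM (adjusted p = 0.0199), a call lost without untreated replicate 2 (0.0719) or S14 replicate 2 (0.0702). S14 and LPS share the 4 untreated libraries, so the values are set side by side without a measure of likeness. Without untreated replicate 1 or S14 replicate 1, 4 members were called lower in place of 7.

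Set directly against LPS at 3 h, S14 cells had 81 members higher and 23 lower, against 23.4% and 22.2% of all genes (15 and 14 on the spike-in scale). The member median was 0.51, and 0.18 in genes of similar mean count. The 6 highest were Zfp275, Zfp41, Zfp846, Zfp266, Zfp652 and Zfp827, and the 6 lowest Zfp459, Zfp945, Zfp800, Zfp324, Zfp811 and Zfp281. Of these, Zfp827, Zfp459 and Zfp811 are members only through a group of this comparison, so their places are no test. Zfp800 was 2.22 log2 units lower with S14 than with LPS (adjusted p = 2.62e-19) and Zfp281 1.91 lower (log2 fold change -1.91, adjusted p = 2.03e-13). Zfp827 was at 3.03 ± 0.799 CPM with S14, 0.909 ± 0.619 with LPS and 1.23 ± 0.867 in untreated cells, and 57 of its 147 reads were in the S14 3 h group. It overlaps Gm45728 on the same strand.

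At 18 h LPS raised 27 members, among them Zfp821, Zfp609, Zfp503 and Zfp800, and lowered 56, among them Zfp395, Zfp101, Zfp704, Zfp367 and Zfp764. Zfp821 (chr8:109705546-109724932, plus strand) was at 8.32, 9.32, 7.68 and 7.34 CPM untreated, 15.7, 15.4, 15.3 and 11.4 with S14, and 41.7, 44.8, 45.6 and 36.9 with LPS. These groups did not overlap, with log2 fold changes of 0.83 (SE 0.19, adjusted p = 0.000837; -0.08 on the spike-in scale) for S14 and 2.37 (SE 0.18, adjusted p = 4.27e-15) for LPS. At 3 h LPS raised it from 6.81 ± 1.39 to 15.5 ± 2.97 CPM, and S14, at 5.84 ± 0.425, was not called.

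Zfp503, a co-repressor of the NLZ family, was at 14.3 ± 4.42 CPM with LPS at 18 h against 5.83 ± 2.92 (log2 fold change 1.27, adjusted p = 0.000855), and its relative Zfp703 at 71.1 ± 16.1 against 43.6 ± 13.2 (0.7, adjusted p = 0.000335). Zfp516, an activator of brown fat genes, was at 23.8, 24.5, 25.6 and 21 CPM untreated, 32.9, 31.7, 35.9 and 27.2 with S14 and 45.4, 40.2, 42.5 and 36.6 with LPS at 18 h. Its S14 call (adjusted p = 0.0319) was lost without untreated replicate 4 (0.0784) or S14 replicate 1 (0.0725), 2 (0.0563) or 3 (0.109), and its LPS value was 0.79 (adjusted p = 1.42e-05). Zfp609, which is known to bind the cohesin loader Nipbl, was at 1.08 ± 1.02 CPM untreated and 4.54 ± 2.18 with LPS (adjusted p = 0.00387). Zfp704 fell from 33.6 ± 8.65 to 9.41 ± 4.8 CPM with LPS (log2 fold change -1.85), Zfp764 from 19.4 ± 4.23 to 6.34 ± 1.29 (-1.6) and Zfp101 from 8.45 ± 2.36 to 2.16 ± 1.08 (-1.93). Zfp760 stood at 3.88 ± 1.05 and 0.817 ± 0.181 CPM.

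LPS at 3 h and at 18 h were measured in different libraries, so their calls can be compared. Of the 109 members lower at 3 h, 37 were also lower at 18 h, which is 33.9% of the 109 and 66.1% of the 56. Over all genes tested, 39.4% of those lower at 3 h were lower at 18 h, and 42% of those lower at 18 h were lower at 3 h. A further 8 of the 109 were higher at 18 h, where 17.9% of all genes lower at 3 h were higher at 18 h. Of the 25 higher at 3 h and 27 higher at 18 h, 9 were shared, 36% and 33.3%, against 50.6% and 46.8% over all genes. Tested directly, the LPS effect was higher at 18 h than at 3 h for 65 members and lower for 23, against 24.9% and 25.8% of all genes, with a member median of 0.48 and 0.07 in similar genes. On the spike-in scale it was higher for 4 and lower for 44, and without untreated 18 h replicate 4 for 14 and 31. The shares of all genes on that scale are not given, so these counts are no result about members in particular. Zfp362 went from 10.4 ± 3.19 to 2.03 ± 0.74 CPM with LPS at 3 h and from 10 ± 0.53 to 13 ± 3.8 at 18 h, a difference of 2.72 log2 units (adjusted p = 5.2e-07). Zfp945 differed by -2.83 (adjusted p = 1.78e-11), Zfp800 by -2.04 (adjusted p = 3.21e-13) and Zfp281 by -2.07 (adjusted p = 3.66e-10). Zfp335, a subunit of histone methyltransferase complexes needed in T cells, fell at 3 h from 12.2 ± 1.27 to 6.26 ± 1.39 CPM and was at 12.5 ± 2.19 against 6.89 ± 2.56 at 18 h, a difference of 1.83 (adjusted p = 5.62e-05).

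S14 at 18 h lowered 16 members and raised 4. Those lower included Zfp101 (8.45 ± 2.36 to 3.93 ± 0.564 CPM), Zfp367 (23 ± 4.3 to 13.1 ± 1.27), Zfp90 (28.3 ± 6.21 to 16.1 ± 1.68) and Zfp644 (30.7 ± 4.01 to 22.7 ± 1.42). The Zfp644 call (adjusted p = 0.0171) was lost without untreated replicate 3 (0.0561) or 4 (0.0582) or S14 replicate 1 (0.0524), and Zfp644 overlaps Gm28039 on the same strand. The 4 higher were Zfp335, Zfp516, Zfp609 and Zfp821, and on the spike-in scale Zfp516 stood at -0.51. Zfp609 had an adjusted p of 0.0339, lost without untreated replicate 3 or 4 or S14 replicate 2 or 4 (0.0626 to 0.122). The count of 16 was 9 without S14 18 h replicate 1 and 10 without replicate 3, and that of 4 was 7 without untreated replicate 1 or 2 and 2 without S14 replicate 2. The S14 effect differed between times for 3 members upward and 5 downward, against 7.58% and 8.84% of all genes (0 and 53 on the spike-in scale, with 1 higher at an unadjusted p under 0.05; 0 and 11 without untreated 18 h replicate 4), among them Zfp281 (-1.08, adjusted p = 0.000508), Zfp800 (-0.75, adjusted p = 0.00156) and Zfp719 (-1.63, adjusted p = 0.0136). These counts of 3 and 5 were 6 and 8 without untreated 18 h replicate 1, the 3 was 1 without S14 3 h replicate 4, and the 5 was 8 without untreated 18 h replicate 2. Against LPS at 18 h, S14 cells had 25 members higher and 21 lower, with 21.1% and 21% of all genes (2 and 10 on the spike-in scale). By the naming rule the highest was Zfp395 (1.79, adjusted p = 0.00374) and the lowest Zfp719 (-1.63, adjusted p = 0.000123).

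Untreated cells also differed between 3 h and 18 h. From 3 h to 18 h 35 members (13.6%) rose and 8 (3.1%) fell, against 18.9% and 19.4% of all genes. Among genes of similar mean count 13.6% rose and 14.3% fell, so the share that rose was the same as in members. The member median was 0.23, and 0 in genes of similar mean count. Of the 19 members that 1 group brought over the threshold, 16 were highest in untreated cells at 18 h. Of the 19, 3 are among the 35 and 0 among the 8. On the spike-in scale 133 rose and 0 fell (edgeR; 1 was lower at an unadjusted p under 0.05), with 46% of all genes higher. Without untreated 18 h replicate 4, which stood apart, the 133 became 39, with 17.4% of all genes higher. Zfp90, a KRAB gene, was at 8.48, 12.4, 8.59 and 8.43 CPM at 3 h and 24.8, 25.1, 25.7 and 37.6 at 18 h (log2 fold change 1.57, SE 0.2, adjusted p = 2.51e-08). Zfp677 rose from 0.878 ± 0.13 to 3.35 ± 1.48 CPM. Zfp760 stood at 1.3 ± 0.644 and 3.88 ± 1.05 CPM, with 92 of its 196 reads in untreated cells at 18 h. Zfp263 fell from 153 ± 8.83 to 103 ± 8.87 CPM (-0.57, adjusted p = 9.83e-06), and Zfp593, a factor of large ribosomal subunit assembly, from 18.4 ± 0.833 to 11.3 ± 4.45 (-0.7, adjusted p = 0.00643). Without untreated 18 h replicate 4, 31 members rose and 7 fell.

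Members with a known role were read from a list. The counts below stand beside 29.9% of all genes lower and 25% higher with LPS at 3 h, and 28% and 27% at 18 h, and with so few members in a role they are given as counts only. Among 12 members that the list places with promoter binders, LPS at 3 h raised Zfp281 and Zfp131 and lowered 5, and at 18 h it raised 6 and lowered 2. The list places Zfp318 there, and it is among the 5, although its known role given next is in splicing. Zfp148, which binds GC-rich promoters, was at 43.5 ± 5.88 CPM untreated and 28.8 ± 1.96 with LPS at 3 h (-0.6, adjusted p = 0.00168), and Zfp318, which controls IgD splicing in B cells, at 70.6 ± 3.78 and 34.2 ± 3.7 (-1.04, adjusted p = 5.1e-09). Zfp292 fell at 3 h (-0.39, adjusted p = 0.00479) and rose at 18 h (0.47, adjusted p = 0.000394), from 65.2 ± 8.72 to 90.3 ± 4.89 CPM. Zfp143, Zfp384, Zfp410 and Zfp217 were not called with LPS at 3 h. Zfp143 (0.45) and Zfp131 (0.39) were called higher with LPS at 18 h at adjusted p of 0.0318 and 0.0458, calls that leaving out 1 library ended: for Zfp143 untreated replicate 3 or 4 or LPS replicate 1 or 2 (0.0528 to 0.105), and for Zfp131 untreated replicate 3 or 4 or LPS replicate 1, 3 or 4 (0.0513 to 0.311).

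Among 5 silencers of imprints and retroelements, 3 fell with LPS at 3 h, where 29.9% of all genes fell. Zfp809, which binds the retroviral primer binding site, was at 11.6 ± 2.57 CPM untreated, 12.6 ± 1.86 with S14 and 4.35 ± 0.754 with LPS (-1.41, adjusted p = 8.18e-05), and at 12 ± 3.9 with LPS at 18 h. Zfp932 fell from 6.43 ± 1.45 to 2.74 ± 1.65 CPM (adjusted p = 0.00522). Zfp445, needed to maintain imprints, fell at 3 h from 38.3 ± 6.14 to 29.7 ± 2.08 (adjusted p = 0.0274), a call lost without untreated replicate 3 (0.172) or LPS replicate 3 (0.0658) or 4 (0.067), and was at 58.9 ± 3.55 against 44.2 ± 5.29 at 18 h (0.41, adjusted p = 0.00709). Zfp568 (-0.61, adjusted p = 0.0881) and Zfp961 (-0.17, adjusted p = 0.708) were not called at 3 h. Zfp57, the other imprint factor of the list, had 0 reads.

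Among 9 RNA, ribosome and nucleolus factors, 4 fell and Zfp207 rose with LPS at 3 h, and 4 fell at 18 h, where 29.9% and 28% of all genes fell. The Zfp326 call at 3 h was lost without untreated replicate 2 or 4 or LPS replicate 2, 3 or 4 (adjusted p 0.0606 to 0.121). It was also lost with DESeq2 (adjusted p = 0.0723), and the Zfp346 call at 3 h was lost without LPS replicate 1 (0.0582). Zfp638, a nuclear protein that silences unintegrated retroviral DNA, went from 59.1 ± 6.46 to 37 ± 1.1 CPM (-0.67, adjusted p = 3.46e-06) and Zfp706 from 89.6 ± 4.04 to 66.5 ± 4.25 (-0.43, adjusted p = 0.000289). Zfp326, of the complex that couples splicing to elongation, was at 49.2 ± 4.1 CPM untreated, 34.3 ± 1.86 with S14 and 23.8 ± 2.6 with LPS at 18 h, with all groups apart (-0.52 and -1.05). Zfp622, a ribosome maturation factor, fell from 72 ± 4.92 to 49.4 ± 9.51 with S14 and 41.7 ± 5.02 with LPS at 18 h. Zfp106, an RNA-binding protein at 117 to 174 CPM on average in the 6 groups, was not called with either treatment against untreated cells. Zfp598, the ubiquitin ligase that marks collided ribosomes, was at 19 ± 2.12 and 13.5 ± 1.12 CPM at 3 h (adjusted p = 0.0463), a call lost when any of 7 of the 8 libraries was left out (0.0504 to 0.134). Zfp91, an E3 ligase for the kinase NIK that overlaps Cntf on its strand, was not called with LPS at either time and was lower with S14 at 18 h (-0.32, adjusted p = 0.0145), lost without untreated replicate 4 (0.0788) or S14 replicate 1 (0.0617) or 3 (0.0514).

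Related gene lists were set beside the family, with 29.9% of all genes lower and 25% higher with LPS at 3 h and 28% and 27% at 18 h. Of 25 genes of the KRAB co-repressor complex tested, 12 fell and 4 rose with LPS at 3 h, 9 fell and 2 rose with LPS at 18 h, and 1 fell with S14 at 3 h. Uhrf1, which couples DNA methylation to histone marks, was at 26.9 CPM untreated and 10.5 with LPS at 3 h (-1.37, adjusted p = 2.03e-06), and Morc3 rose from 61.1 to 135 CPM. Of 35 Zbtb genes, 16 fell and 3 rose with LPS at 3 h (median -0.68), and of 14 Zkscan and Zscan genes 6 fell and 2 rose (median -0.68). Of 23 genes whose Zfp number is followed by letters, 11 fell with LPS at 3 h (median -0.7). Zfp36l1 and Zfp36l2 are among these and are counted again in the next list. Of 19 CCCH finger genes, which include Zfp36, 9 rose and 5 fell (median 0.25), and of 15 Klf and Sp genes 6 rose and 8 fell. Zfp36, the mRNA-decay factor tristetraprolin, was at 163 CPM in untreated cells at 3 h, 339 after S14 and 1550 after LPS, while its relative Zfp36l1 went from 67.3 to 13.8 CPM with LPS.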

How the data were processed

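Whole-read counts per gene, which the authors deposited with no normalization, were used for 24 libraries of mouse macrophages. The second table the authors deposited holds a signal, reads divided by a size factor per library (0.773 to 1.59). All its values were whole reads within 0.001 once multiplied by that factor, and it served for the spike-in scaling and as an alternative, since 69 members had other totals in it. The submitters' processing notes name STAR 2.6.1a, cutadapt 1.18 and FastQC, besides GRCm38, Subread with featureCounts 1.6.4, and DESeq2. The sources used here do not give their order, the strand setting or the annotation.

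The 7 ribosomal RNA entries (0.132 to 0.469% of reads) were set aside. Genes with 120 or more reads over the 24 libraries were scaled by TMM and fitted with edgeR 4.0.16 (robust quasi-likelihood, 1 mean per group over all groups, 18 residual degrees of freedom), and called at a Benjamini-Hochberg adjusted p under 0.05 over 11808 genes. The fit was tested on simulated data. Fold changes against groups of 0 to 3 reads use a floor of 3 reads per group or a 95% exact Poisson-based interval, which cover counting error only. KRAB boxes (12 of 15 fixed places in 28 residues) and fingers were counted in coding sequences translated from GENCODE M21, and promoters come from RefSeq GRCm38.p6, which held 214 members by symbol.

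Genes named are, for each treatment comparison, the 6 highest and 6 lowest called members with at least 3 CPM and groups that do not overlap, 3 each for time comparisons, the 6 most abundant, and members with known roles. Other lists were the KRAB co-repressor complex, Zbtb, Zkscan and Zscan, Klf and Sp, CCCH and letter-suffixed Zfp genes, and cell type markers, with those of dendritic cells and of mast cells and basophils (Ms4a2 and Tpsb2 at 0) summing to at most 4.19 and 0.78 CPM in any library. The result of 1 marker list is not reported here. The members and lists were chosen with earlier results of these data known. Alternatives were another scaling, filter, tool, table, spike-in scaling, the compared groups alone, a replicate block and leaving out each library. Same-numbered libraries of 2 groups correlated at -0.02 to 0.14 in their deviations, so the numbers were not taken as pairs.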

Additional observations from a re-analysis of the deposited data

Results flagged for a closer look

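In 20 of 396 groups of 4 libraries looked at, for the 66 named members, 1 library lay far from the other 3, its gap to the nearest being larger than Dixon's 95% critical share of the group's range. Chance flags about 5% of groups. Libraries above the other 3 were Zfp41 at 2.34 CPM in LPS 3 h replicate 4 (others 0.27 to 0.558), Zfp410 at 9.2 CPM in S14 18 h replicate 4 (others 6.77 to 6.87), Zfp445 at 47.4 CPM in untreated 3 h replicate 3 (others 33.9 to 36), Zfp503 at 20.8 CPM in LPS 18 h replicate 1 (others 11.3 to 12.6), Zfp598 at 31.8 CPM in LPS 18 h replicate 4 (others 16.3 to 18.3), Zfp638 at 57.8 CPM in S14 18 h replicate 2 (others 49.6 to 50.6) and Zfp644 at 23.2 CPM in LPS 18 h replicate 1 (others 20.6 to 21). Also above were Zfp706 at 89 CPM in S14 18 h replicate 1 (others 75.1 to 77.4), Zfp811 at 0.158 CPM in untreated 18 h replicate 2 (others at 0), Zfp811 at 0.449 CPM in S14 18 h replicate 4 (others at 0), Zfp90 at 12.4 CPM in untreated 3 h replicate 2 (others 8.43 to 8.59), Zfp90 at 37.6 CPM in untreated 18 h replicate 4 (others 24.8 to 25.7), Zfp91 at 116 CPM in untreated 18 h replicate 4 (others 91.6 to 93.3) and Zfp961 at 5.3 CPM in LPS 3 h replicate 2 (others 3.64 to 3.79). Libraries below the other 3 were Zfp275 at 7.88 CPM in untreated 3 h replicate 2 (others 11.7 to 12), Zfp324 at 4.58 CPM in S14 18 h replicate 1 (others 8.42 to 9.2), Zfp346 at 5.65 CPM in untreated 3 h replicate 1 (others 6.3 to 6.39), Zfp346 at 5.6 CPM in S14 3 h replicate 4 (others 6.32 to 6.46), Zfp768 at 24.7 CPM in S14 18 h replicate 1 (others 27.9 to 28.5) and Zfp821 at 11.4 CPM in S14 18 h replicate 4 (others 15.3 to 15.7).

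The S14 effect differed between 18 h and 3 h for 8 named members by edgeR's test of the difference in log2 units, adjusted over all genes. It was higher at 18 h for Zfp335 (1.11), Zfp821 (1.05) and Zfp768 (0.72), and lower for Zfp719 (-1.63), Zfp281 (-1.08), Zfp90 (-0.95), Zfp800 (-0.75) and Zfp330 (-0.65). The call of Zfp768 missed the threshold without untreated 3 h replicate 1 or 4, S14 3 h replicate 3 or 4 or S14 18 h replicate 2 or 4 (adjusted p 0.0529 to 0.075). That of Zfp335 did so without S14 3 h replicate 2 or 4 or S14 18 h replicate 3 (0.0519 to 0.065), and that of Zfp90 without untreated 18 h replicate 4 (0.0503). The LPS effect differed between the times for 34 named members. It was higher at 18 h for Zfp395 (4.51), Zfp362 (2.72), Zfp846 (2.52), Zfp41 (2.45), Zfp398 (2.39), Zfp275 (2.37), Zfp609 (2.3), Zfp266 (1.85), Zfp335 (1.83), Zfp652 (1.7), Zfp932 (1.56), Zfp703 (1.55), Zfp516 (1.52), Zfp768 (1.49), Zfp809 (1.49), Zfp821 (1.18), Zfp292 (0.85), Zfp445 (0.78), Zfp148 (0.71) and Zfp318 (0.62). It was lower at 18 h for Zfp459 (-3.62), Zfp945 (-2.83), Zfp39 (-2.75), Zfp324 (-2.2), Zfp281 (-2.07), Zfp800 (-2.04), Zfp90 (-1.4), Zfp608 (-1.29), Zfp319 (-1.18), Zfp207 (-0.81), Zfp326 (-0.75), Zfp622 (-0.71), Zfp710 (-0.69) and Zfp330 (-0.66). No LPS library at 3 h held a read of Zfp395, so its value depends on the prior count of the fit and is no bound. Zfp459 is counted in the 34 but is a member only through its reads with LPS at 3 h, so its call is no support for a change.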

How the results depend on the processing

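Under edgeR with DESeq2's size factors, DESeq2, edgeR's filterByExpr, no filter, the compared groups alone and the reads of the normalized table, no named member changed direction, and of 202 calls 5, 5, 0, 18, 22 and 1 missed the threshold. Counts of called members stayed within 1.5 times of those reported, save for the following: S14 at 18 h gave 2 higher and 10 lower, and untreated cells over time 4 lower, with the compared groups alone, and the time difference of S14 gave 5 higher without a filter, 5 higher and 8 lower with DESeq2. With a replicate block, which the labels do not tie to animals, 1 of 202 calls missed the threshold, 110 members fell with LPS at 3 h, and the time difference of S14 gave 5 higher; 2 to 3 of 4 libraries, by pair of groups, correlated best with their own number.

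Spike-in scaling changed most. Members called higher and lower were 2 and 0 for S14 at 3 h, 23 and 30 for LPS at 3 h, 0 and 155 for S14 at 18 h, 3 and 91 for LPS at 18 h, 15 and 14 for S14 against LPS at 3 h, 2 and 10 for the same pair at 18 h, 133 and 0 for untreated cells over time, 0 and 53 for the time difference of S14, and 4 and 44 for that of LPS. With untreated 18 h replicate 4 also left out they were 3 and 0, 31 and 47, 0 and 41, 7 and 41, 34 and 24, 5 and 25, 39 and 0, 0 and 11, and 14 and 31, in the same order. The counts of 0 are by edgeR, and at an unadjusted p under 0.05 were 2, 0, 1 and 1 with all libraries and 6, 1, 0 and 0 without that library, and DESeq2 was not run on this scale. Of 202 named calls 19 and 6 changed sign. With all libraries their log2 fold changes were, with LPS at 3 h Zfp326 0.08 and Zfp445 0, with S14 at 18 h Zfp516 -0.51 and Zfp821 -0.08, with LPS at 18 h Zfp131 -0.01, Zfp143 -0.2, Zfp263 -0.21, Zfp281 -0.25, Zfp292 -0.17, Zfp445 -0.27, Zfp654 -0.15 and Zfp768 -0.16, for S14 against LPS at 18 h Zfp638 -0.04 and Zfp706 -0.02, for untreated cells over time Zfp131 0.15, Zfp207 0.4, Zfp263 0.35 and Zfp800 0.13, for the time difference of S14 Zfp768 -0.3. Without that library they were, with LPS at 3 h Zfp326 0.07, with S14 at 18 h Zfp516 -0.11, for S14 against LPS at 18 h Zfp638 -0.03 and Zfp706 -0.01, for untreated cells over time Zfp131 0.1 and Zfp207 0.03. The cause was not tested, and the sources used here do not give the amount of spike-in RNA per sample.

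Leaving out each library in turn gave 95 to 106 lower and 22 to 25 higher with LPS at 3 h and reversed no named call, but 49 of the 202 calls missed the threshold without some library, 14 of them without untreated 18 h replicate 4. Ranges were 4 to 8 lower for S14 at 3 h, 2 to 7 higher and 9 to 21 lower for S14 at 18 h, and 1 to 6 higher and 4 to 8 lower for the time difference of S14. Of 83 members under 4 CPM, 20 were lower and 6 higher with LPS at 3 h, and the part of depth in this was not tested.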
